A study of Mus musculus with 8 samples.

Results

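Interferon response genes are genes whose transcripts rise when a cell senses an interferon. Their members here are 36 genes picked by name: Stat2, Irf9, Irf7, Usp18, Isg15, Trim25, Dtx3l, Ifih1, Dhx58, Zbp1, Oas1a, Oas2, Oas3, Oasl2, Ifit1, Ifit2, Ifit3, Ifitm3, Bst2, Rsad2, Parp9, Parp12, Parp14, Gbp2, Gbp3, Gbp7, Igtp, Irgm1, Iigp1, Ifi27, Ifi35, Ifi44, Xaf1, Rtp4, Samd9l and Sp100. All 36 were found among the 21970 genes measured, and all 36 passed the filter on low values that kept 14055 genes. They were followed in whole ventricle, the pumping chambers of the heart with all their cell types, from C57BL/6J mice, an inbred laboratory strain. The groups were postnatal day 3 (P3), P6, P12 and P24, with 2 libraries each and no treatment or genetic change named. The series asks how ventricle transcripts change across these stages, and its title names a retinoic acid signal. Nothing in the labels says that libraries of a stage came from separate animals, and the p-values below then reflect the spread among libraries alone. That spread may be technical at P3. The P6, P12 and P24 pairs each differed in Y-linked reads and so did not share all their material. In the P3 pair, summed normalized counts were 14832 and 40576 for red cell markers and 198636 and 122282 for fibroblast markers. Those of the 36 members were 13040 and 12318. Whether the P3 pair shared its material was not tested.

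Interferons are secreted proteins that warn cells of infection. Type I interferons bind the receptor chains Ifnar1 and Ifnar2, whose attached kinases Jak1 and Tyk2 phosphorylate STAT proteins, among them Stat2. Stat2 and Irf9 are subunits of the complex ISGF3, which binds the interferon-stimulated response element in promoters. Type II interferon (Ifng) acts through another promoter element, the gamma-activated site. The induced genes include sensors of viral nucleic acid, enzymes that block viral translation or replication, GTPases that attack the vacuoles of intracellular pathogens, and inhibitors that end the signal. A low tonic level of this program is known in uninfected tissue, and macrophages are among the cells that express it.

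Levels are the authors' normalized counts, reads per gene scaled so that libraries can be compared, and 1 read was worth 0.963 to 1.35 normalized counts. Reads in protein-coding genes numbered 23375967 to 28745112 per library. Reads in the 36 members together numbered 11284 to 19216. The 2 P6 libraries lay farthest apart, with 7.65% of tested genes more than 2-fold different between them, against 1.57% to 2.9% in the other pairs. Reads of 4 Y-linked genes numbered 5260 to 7182 in replicate 1 of P6, replicate 1 of P12 and replicate 2 of P24, and 1 to 4 in the other 5 libraries. All 10 heart muscle markers were above 0 in every library.

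Promoter sequence is shown for 8 of the 15 members whose windows matched the core of the element that the ISGF3 complex binds. RefSeq promoter windows of GRCm38.p6, reaching from 250 bases before to 50 after a gene's start, were at hand for 27 of the 36 members. The core of the response element, GAAA followed by 2 free bases and GAAA again, was searched on both strands. It was in the windows of 15 of those 27 genes (55.6%), against 3.99% of all 27025 genes with a window. By window the shares were 15 of 31 (48.4%) for the members and 3.44% of all 32851. Of the 23 matched members called higher at P24 than at P3 in the test below, 14 held the core. Of the 4 not called, Oas3 held it. The gamma-activated site TTCNNNGAA, which reads the same on both strands, was in windows of 7 members (25.9%) and of 9.55% of all genes. In 5 members both motifs were found, and in Bst2 and Ifitm3 the matches shared bases. The stretches below run 5′ to 3′ on the strand of the gene, and capitals mark matches to the core or to its reverse complement, with overlapping matches joined.
Isg15, chr4:156200860-156200911, minus strand: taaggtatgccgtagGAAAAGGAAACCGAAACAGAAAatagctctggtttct
Bst2, chr8:71537572-71537617, minus strand: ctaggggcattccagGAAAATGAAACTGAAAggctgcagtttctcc
Gbp2, chr3:142620589-142620628, plus strand: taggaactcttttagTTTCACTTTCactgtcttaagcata
Gbp3, chr3:142559984-142560029, plus strand: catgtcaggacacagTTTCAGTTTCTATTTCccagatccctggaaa
Ifit1, chr19:34640770-34640828, plus strand: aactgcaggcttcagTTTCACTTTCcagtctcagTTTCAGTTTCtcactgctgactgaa
Ifit3, chr19:34583358-34583431, plus strand: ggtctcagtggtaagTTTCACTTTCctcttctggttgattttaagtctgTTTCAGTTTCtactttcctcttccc
Gbp7, chr3:142530268-142530307, plus strand: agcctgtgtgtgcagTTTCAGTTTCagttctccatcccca
Oas3, chr5:120777710-120777749, minus strand: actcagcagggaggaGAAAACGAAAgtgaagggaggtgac
Isg15 held 3 overlapping matches and Bst2 and Gbp3 held 2 each, while Ifit1 and Ifit3 held 2 separate ones. Counted from the start, the matches ran from base -78 to -57 in Isg15, -130 to -115 in Bst2 and -75 to -66 in Oas3. A match is only a run of letters, and no binding was measured.

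Most interferon response genes, among them Oas2, Ifit3, Iigp1 and Irf7, were higher in P24 than in P3 ventricle. At P24, 30 of the 36 members were higher than at P3 and none was lower, by limma with Benjamini-Hochberg (BH) adjustment over all tested genes (adjusted p below 0.05). Of all tested genes 18.7% were called higher and 18.2% lower in that comparison, 36.9% in all. Without adjustment the counts at p below 0.05 were also 30 and 0, and edgeR and DESeq2 on reads recovered from the normalized counts both gave 30 and 0. The median log2 change, P24 minus P3 on the log2(normalized count + 1) scale, was 1.13 over the members and -0.02 over all tested genes. In 33 members both P24 libraries lay above both P3 libraries, against 38.6% of all tested genes, and in none did both lie below (39.9%). At least a 2-fold rise was called in 19 members, against 9.62% of all tested genes. Not called were Trim25, Dtx3l, Zbp1, Oas3, Ifit2 and Parp9. Of these, Zbp1, Parp9 and Trim25 had both P24 libraries above both P3 libraries, and Zbp1 changed by 1.14.

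The rise was steepest in Oas2 (2.96), Ifit3 (2.56), Iigp1 (2.20) and Ifit1 (2.09), the 4 members between 4-fold and 8-fold. When reads were scaled by library total alone, the median gene shifted by -0.36 and the counts became 21 members higher and 1 lower (Ifit2), against 10.8% and 35.9% of all genes. Relative to that shift, 35 of 36 members lay above the median gene, with a median of 1.15. Without both P6 libraries 31 members were higher, and 3918 of all 13961 genes tested in that fit. Macrophage markers moved alongside: 15 of 18 were higher at P24 than at P3 (18.7% of all tested genes). Their summed normalized count was 19359 to 19500 at P24 and 5560 to 6859 at P3. The part of these cells in the change of the members was not tested. In whole ventricle, fewer or more cells of a type and less or more RNA per cell cannot be told apart.

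Of the 30 calls at P24 against P3, 16 held whichever single library was left out. The count fell to 17 without P24 replicate 1, where Usp18, Irgm1, Ifitm3, Igtp, Irf9, Stat2 and Rtp4 were among the calls lost, and was 23 without P24 replicate 2, where Rsad2 was lost. It was 22 without P3 replicate 1 and 21 without P3 replicate 2. Parp12 and Bst2 kept their call only in the 2 fits without a P6 library, and Oas1a in those and without P24 replicate 2. Ifi27, Ifi35 and Samd9l lost it whichever P3 or P24 library was left out. Leaving out either P12 library gave 27.

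**Figure D1:**
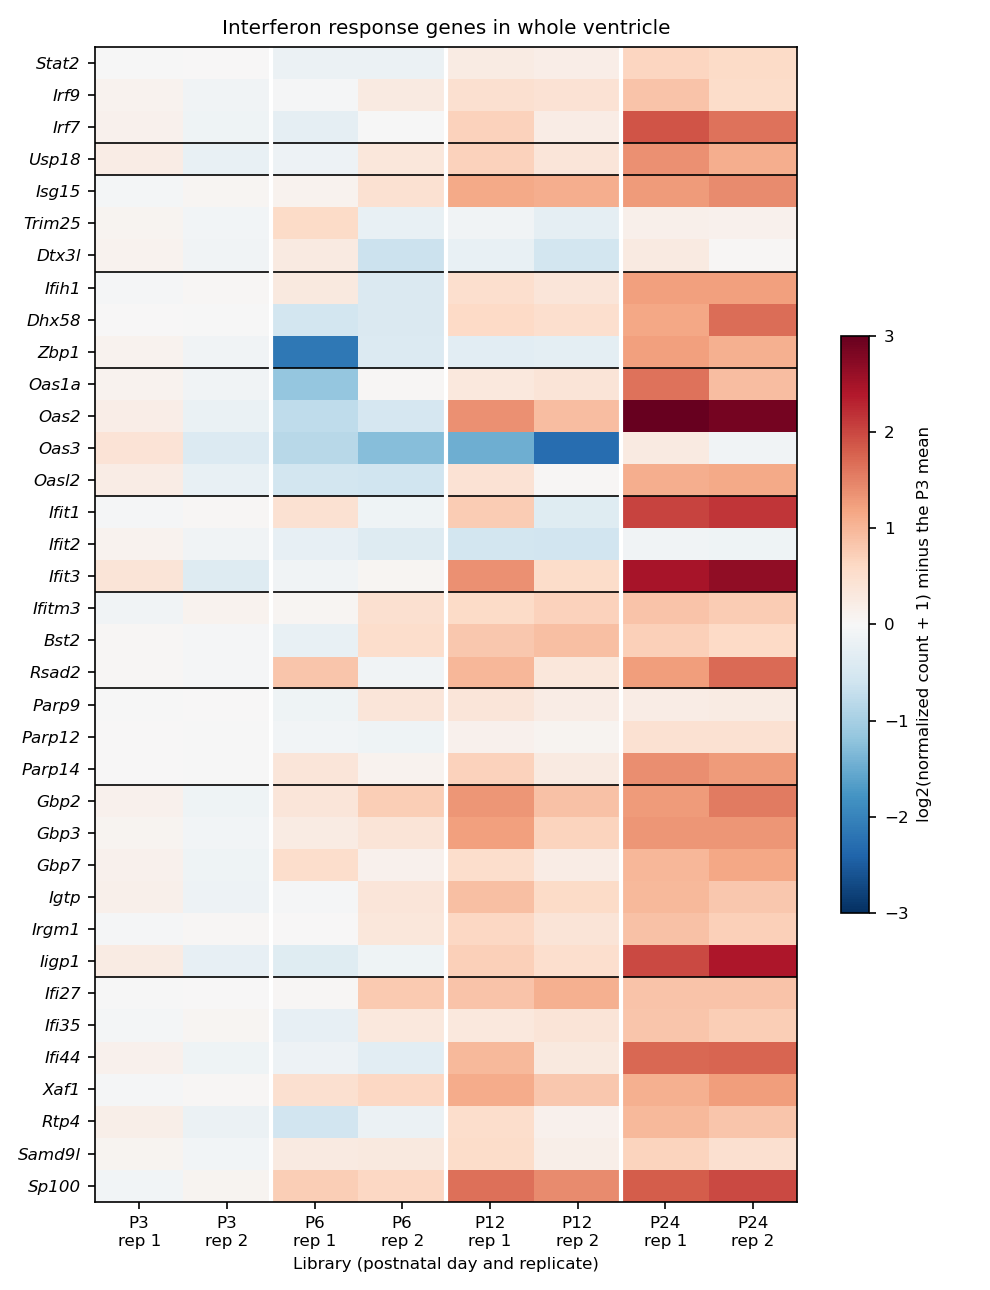
Level of each of the 36 interferon response genes (down the page, grouped by role) in each of the 8 libraries (across, from P3 to P24), as log2(normalized count + 1) minus the gene's P3 mean, with red above and blue below. The P24 columns are red for most genes, the P12 columns are paler, and Oas3 is the darkest blue at P12.

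The signal transducers and transcription factors all rose. Stat2, a subunit of ISGF3, had 545 and 559 (P3), 493 and 486 (P6), 652 and 637 (P12), and 862 and 823 (P24) normalized counts. Its pairs did not overlap between any stages, with P6 lowest and P24 highest. The log2 change at P24 against P3 was 0.61 ± 0.13 (SE, adjusted p = 0.00639). Irf9, the DNA-binding subunit of the same complex, had 598 and 524 (P3), 545 and 671 (P6), 783 and 753 (P12), and 1011 and 819 (P24). Its P3 and P6 pairs overlapped, its P12 pair lay above both, and its P24 pair lay above all other libraries. The change was 0.70 ± 0.17 (SE, adjusted p = 0.0114). Irf9 shares exon sequence with Rnf31 on the same strand, and its reads are uncertain to that extent. Irf7, the factor that amplifies type I interferon transcription, had 145 and 120.1 (P3), 108 and 131 (P6), 212 and 154 (P12), and 488 and 408 (P24). Both P24 libraries were far above the other 6, and the change was 1.75 ± 0.22 (SE, adjusted p = 0.000341). The call of Stat2 and of Irf9 was lost under scaling by library total alone, with adjusted p of 0.143 and 0.108.

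The single negative regulator among the members also rose. Usp18, which strips Isg15 from proteins and dampens signalling at the type I receptor, had 101 and 75.3 (P3), 78.04 and 111 (P6), 142 and 112 (P12), and 226 and 187 (P24) normalized counts. The P3 and P6 pairs overlapped and both P24 libraries were highest. Its log2 change at P24 against P3 was 1.23 ± 0.25 (SE, adjusted p = 0.00537), and without P24 replicate 1 the adjusted p was 0.0539.

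Of the ubiquitin-like modifier and the ubiquitin ligases, 1 of 3 passed. Isg15, a small protein joined to other proteins during the response, had 83.3 and 90.6 (P3), 94.3 and 119.6 (P6), 191 and 185 (P12), and 211 and 232 (P24) normalized counts. Its pairs were ordered by stage with no overlap. The log2 change at P24 against P3 was 1.34 ± 0.19 (SE, adjusted p = 0.000698). Trim25, a ligase that acts on the RNA sensor pathway, had 1429 and 1413 normalized counts at P24 and 1351 and 1225 at P3. Dtx3l, a ligase that partners Parp9, had 612 and 517 at P24 and 543 and 468 at P3. The P24 libraries of Trim25 lay just above its P3 libraries, those of Dtx3l overlapped them, and the changes were 0.14 (95% interval -0.37 to 0.66) and 0.16 (95% interval -0.47 to 0.78).

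Among the sensors of viral nucleic acid, 2 of 3 were called higher. Ifih1, which senses long double-stranded RNA, had 191 and 203 (P3), 242 and 145 (P6), 280.3 and 255 (P12), and 463 and 465 (P24) normalized counts. Its P6 pair reached both above and below its P3 pair, and P24 was highest. The log2 change at P24 against P3 was 1.23 ± 0.23 (SE, adjusted p = 0.00315). Dhx58, a helicase that assists Ifih1, had 42.2 and 41.5 (P3), 28.4 and 30.5 (P6), 64.3 and 59.7 (P12), and 94.8 and 135 (P24). Its P6 pair was lowest and its P24 pair highest, with no overlap between stages, and the change was 1.42 ± 0.25 (SE, adjusted p = 0.00224). Zbp1, a sensor of left-handed nucleic acid, had 23.2 and 19.6 (P3), 4.05 and 15.9 (P6), 16.9 and 17.3 (P12), and 51.5 and 45.5 (P24). Its pairs did not overlap between any stages, with P24 highest and P6 lowest and widest. The change of 1.14 ± 0.51 (SE, adjusted p = 0.113) did not pass.

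The OAS enzymes make short adenylates that act as antiviral messengers, and 3 of 4 rose. Oas2 had 40.1 and 30.6 (P3), 20.3 and 24.4 (P6), 92.7 and 67.4 (P12), and 298 and 263 (P24) normalized counts. The pairs of all 4 stages were separate, with P6 lowest. Its log2 change at P24 against P3 was 2.96 ± 0.26 (SE, adjusted p = 4.15e-05), above that of every other member. Oas1a had 47.5 and 41.5 (P3), 19.3 and 45.1 (P6), 55.8 and 58.8 (P12), and 139.5 and 84.9 (P24), and its change was 1.28 ± 0.40 (SE, adjusted p = 0.0328). Its P6 and P24 pairs were both wide, and both P24 libraries lay above the rest. Oas1a has a near copy, Oas1g, so part of its reads may belong to the other gene. Oas3 had 17.9 and 9.82 (P3), 7.09 and 4.88 (P6), 4.21 and 1.93 (P12), and 16.3 and 12.3 (P24), so few reads that counting error is large. Its P24 and P3 pairs overlapped, and its change was 0.08 (95% interval -1.08 to 1.24). For Oasl2, an OAS-like protein, the log2 change was 1.11.

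The IFIT proteins bind foreign RNA and hold back its translation. Ifit3 had 90.7 and 52.4 (P3), 63.8 and 71.99 (P6), 179 and 101 (P12), and 385 and 438 (P24) normalized counts. Its P3 and P6 pairs overlapped and its P24 pair stood above all others. Its log2 change at P24 against P3 was 2.56 ± 0.32 (SE, adjusted p = 0.000376), with the near-identical copy Ifit3b changing by 2.99. Ifit1 had 56.97 and 60.04 (P3), 80.1 and 53.7 (P6), 100.1 and 45.3 (P12), and 243 and 262 (P24). The first 3 stages overlapped and the 2 P12 libraries were more than 2-fold apart. Its change was 2.09 ± 0.35 (SE, adjusted p = 0.00188). Ifit2 went another way, with 823 and 714 (P3), 649.6 and 583 (P6), 521 and 514 (P12), and 718 and 702 (P24). It was lowest at P12, and its P24 pair reached from just below its P3 pair into that pair's range, with a change of -0.11 (95% interval -0.43 to 0.21). RefSeq places Ifit2 and Ifit3 side by side on chromosome 19.

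**Figure D2:**
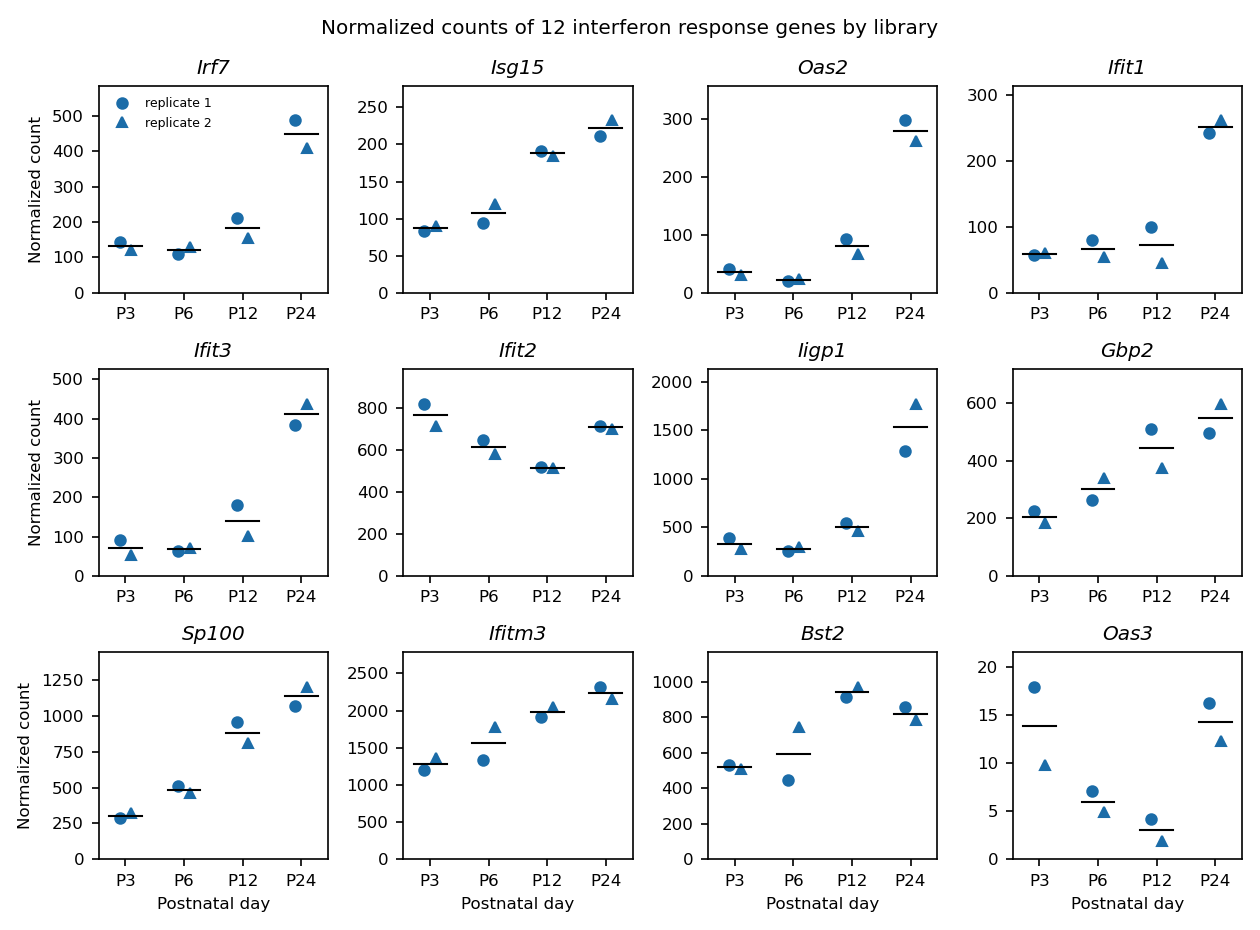
Normalized counts of 12 interferon response genes (vertical axes, each from 0) at P3, P6, P12 and P24, with a circle for replicate 1, a triangle for replicate 2 and a line for the mean. Oas2, Ifit1, Ifit3, Iigp1 and Irf7 show their large step at P24, Sp100, Isg15 and Gbp2 are already high at P12, and Ifit2 and Oas3 are lowest at P12.

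All 3 genes of membrane and entry restriction rose. Ifitm3, which blocks viral fusion in endosomes, had 1194 and 1360.2 (P3), 1337 and 1779 (P6), 1912 and 2052 (P12), and 2318 and 2153 (P24) normalized counts. The P24 and P12 pairs lay above all P3 and P6 libraries. Its log2 change at P24 against P3 was 0.81 ± 0.17 (SE, adjusted p = 0.00505). Bst2, or tetherin, which holds budding virus on the cell surface, had 533 and 508 (P3), 444 and 747 (P6), 915 and 971 (P12), and 859 and 782 (P24). Its P12 pair was highest, its P6 pair reached both above and below its P3 pair, and the change at P24 was 0.66 ± 0.22 (SE, adjusted p = 0.0467). Rsad2, or viperin, which makes a nucleotide that stops viral polymerases, had 289 and 277 (P3), 501 and 261 (P6), 562 and 358 (P12), and 681 and 928 (P24). Its P24 pair was highest and its P6 and P12 pairs overlapped, and the change was 1.49 ± 0.32 (SE, adjusted p = 0.00643).

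The PARP proteins attach ADP-ribose to other proteins, and 2 of 3 were called higher. Parp14 had 552 and 546 (P3), 707 and 587 (P6), 888 and 662 (P12), and 1442 and 1336 (P24) normalized counts. Its P24 pair stood well above the rest, and its log2 change at P24 against P3 was 1.34 ± 0.18 (SE, adjusted p = 0.000467). Parp12 had 699 and 681 (P3), 649.6 and 635 (P6), 750.2 and 733 (P12), and 942 and 942 (P24). Its pairs were tight and separate, with P6 lowest, and its change was small at 0.45 ± 0.13 (SE, adjusted p = 0.0232). Parp9 had 786 and 799 at P24 and 669.9 and 679 at P3. Its P24 pair lay above its P3 pair, and the change of 0.23 (95% interval -0.16 to 0.63) did not pass. Parp14, Dtx3l and Parp9 are neighbours in RefSeq, and Dtx3l and Parp9 share exon sequence on opposite strands.

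All 6 interferon-inducible GTPases rose, with log2 changes at P24 against P3 of 0.79 (Irgm1) to 2.20 (Iigp1). Iigp1, which coats and breaks the vacuoles of parasites, had 386 and 277 (P3), 253 and 299 (P6), 541 and 465 (P12), and 1287 and 1772 (P24) normalized counts. The P24 libraries were both more than 2-fold above every other library. Its change was 2.20 ± 0.22 (SE, adjusted p = 9.33e-05). Gbp2, a guanylate-binding protein of the same defence, had 225 and 186 (P3), 262 and 342 (P6), 512 and 376 (P12), and 497 and 599 (P24). The P24 and P12 pairs overlapped and both lay above P6 and P3. Its change was 1.41 ± 0.22 (SE, adjusted p = 0.00109). Gbp3 had 648 and 653 normalized counts at P24 and 272 and 247 at P3, and Gbp7 and Igtp changed by 1.08 and 0.89. Igtp shares exon sequence with Irgm2 on the same strand.

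All 7 remaining interferon-induced genes rose. Sp100, a protein of nuclear bodies, had 285 and 321 (P3), 508 and 465 (P6), 956 and 810.1 (P12), and 1072 and 1204 (P24) normalized counts. Its pairs were ordered by stage with no overlap. The log2 change at P24 against P3 was 1.91 ± 0.16 (SE, adjusted p = 2.88e-05). Ifi44 had 72.8 and 60.04 (P3), 59.8 and 52.5 (P6), 131 and 81.9 (P12), and 221 and 225 (P24), with both P24 libraries above the rest and a change of 1.74 ± 0.25 (SE, adjusted p = 0.000839). Ifi27 had 488 and 496 (P3), 501 and 849 (P6), 895 and 1031 (P12), and 897 and 897 (P24). Its P24 pair lay within the range of its P12 pair and above its P3 pair, and the change was 0.86 ± 0.23 (SE, adjusted p = 0.0161). Xaf1, which opposes the apoptosis inhibitor Xiap, and Rtp4, Ifi35 and Samd9l changed by 1.16, 0.90, 0.78 and 0.58.

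By P12 a smaller set had risen. Against P3, 10 members were higher at P12 (limma, BH adjusted p below 0.05; 11.4% of all tested genes): Sp100, Isg15, Gbp2, Gbp3, Xaf1, Ifi27, Bst2, Igtp, Ifitm3 and Oas2. Ifit2 and Oas3 were lower (13% of all tested genes). The largest rise was in Sp100, 1.54 ± 0.16 (SE, adjusted p = 0.000551), followed by Oas2, 1.15 ± 0.26 (SE, adjusted p = 0.015). Isg15 rose by 1.10 ± 0.19 (SE, adjusted p = 0.00523) and Gbp2 by 1.10 ± 0.22 (SE, adjusted p = 0.00899). Ifit2 fell to 521 and 514 normalized counts at P12, against 823 and 714 at P3, a log2 change of -0.57 ± 0.14 (SE, adjusted p = 0.0231). Oas3 fell to 4.21 and 1.93 at P12, against 17.9 and 9.82 at P3, a change of -1.87 ± 0.51 (SE, adjusted p = 0.0302). In neither did the pairs overlap. Both P12 libraries lay above both P3 libraries in 28 members (35.3% of all tested genes) and below them in 5 (40.4%). The median log2 change of the members was 0.47, against -0.03 over all tested genes.

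The count at P12 depended on single libraries. It was 1 (Sp100) without P12 replicate 1, 6 without P12 replicate 2, 4 and 3 without P3 replicate 1 and 2, and 22 without both P6 libraries; DESeq2 called 14 and edgeR 12. Over all genes, limma called 1608 of 14055 higher with all 8 libraries and 3267 of 13961 without both P6 libraries. DESeq2 called 1933 of all genes higher and edgeR 1842. Removing each library's trend over gene length gave 13 members higher (1960 of all genes) but ended 4 of the 10 calls. The log2 changes of these 4 were then 0.55 for Isg15, 0.49 for Igtp, 0.37 for Bst2 and 0.072 for Ifitm3. Neither Ifit2 nor Oas3 kept its call in the 6 fits that left out a P3, P12 or P24 library. Replicate 1 was above replicate 2 at P12 in 30 of 36 members (83.3%; 55.6% of all tested genes). The P12 macrophage markers leaned the same way, higher in replicate 1 in 16 of 18, and their summed normalized count was 11628 to 13293 at P12 and 5560 to 6859 at P3. The part of these cells was not tested.

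Between P12 and P24, RNA sensors, OAS enzymes and IFIT genes were among the members that rose. At P24, 12 were higher than at P12 (limma, BH adjusted p below 0.05; 8.2% of all tested genes) and none was lower (8.14%): Irf7, Ifih1, Dhx58, Oas2, Oas3, Oasl2, Ifit1, Ifit3, Parp14, Gbp7, Iigp1 and Ifi44. No member was lower at an unadjusted p below 0.05 either, and edgeR and DESeq2 also gave 0. The changes were 1.96 ± 0.51 (SE, adjusted p = 0.0337) for Oas3, 1.89 ± 0.35 (SE, adjusted p = 0.00873) for Ifit1, 1.81 ± 0.26 (SE, adjusted p = 0.00222) for Oas2 and 1.60 ± 0.32 (SE, adjusted p = 0.0122) for Ifit3. Oas3 had only 16.3 and 12.3 normalized counts at P24, against 4.21 and 1.93 at P12. Without its P24 libraries Oas3 would not have passed the filter on low values, so the filter favoured this call. Iigp1 reached 1287 and 1772 normalized counts at P24, against 541 and 465 at P12, a change of 1.59 ± 0.22 (SE, adjusted p = 0.00191). Irf7 reached 488 and 408 at P24, against 212 and 154 at P12, a change of 1.30 ± 0.22 (SE, adjusted p = 0.00512). Both pairs were widely separate. Both P24 libraries lay above both P12 libraries in 29 members (40.2% of all tested genes) and below them in 1, Bst2 (35.9%). The median log2 change was 0.50, against 0.03 over all tested genes.

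Iigp1 and Oas2 kept their call in all 8 fits without 1 library. The count was 2 without P12 replicate 2, 2 without P24 replicate 1, 3 without P24 replicate 2, 8 without P12 replicate 1 and 24 without both P6 libraries. Over all genes, limma called 1153 of 14055 higher with all 8 libraries, and that count also rose without both P6 libraries. The rise to 24 was therefore not confined to the members. edgeR called 12 and DESeq2 11, with 9 called by both and by limma. Dhx58, Ifih1 and Oas3 were not among these 9. Dhx58, Ifih1 and Gbp7 lost their call without the filter on low values and under scaling by library total alone. Oasl2 lost its call under that scaling. Macrophage markers had summed normalized counts of 19359 to 19500 at P24 and 11628 to 13293 at P12. Of the 18, 6 were higher at P24 (8.2% of all tested genes) and 0 lower (8.14%).

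Read across both steps, Oas2 was called higher in each, 9 members in the first alone and 11 in the second alone, including Oas3, which fell in the first. Of all 14055 tested genes, 1608 were called higher in the first step, 1153 in the second and 250 in both. Another 10 members rose over the whole span without passing in either step, and the matching number over all genes was not counted. Among the 30 members that rose by P24, the share of the log2 change already present at P12 had a median of 41.0%, against 57.0% over all 2623 genes called higher. It was 9.65% in Ifit1, 21.6% in Oasl2, 25.8% in Irf7 and 27.9% in Iigp1. It was 80.7% in Sp100, 82.3% in Isg15 and 83.6% in Xaf1, and above 100% in Ifi27 and Bst2. The share lay above 50% in 12 members. These shares are descriptions and share the P3 and P24 libraries with the comparisons above.

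A pass in 1 step and not in the other does not show that the steps differ, so the second step minus the first was fitted as a contrast, chosen after the values were seen. It passed in 3 members (limma, BH adjusted p below 0.05; 7.56% of all tested genes, 3.58% higher and 3.98% lower): the second step was the larger in Oas3, by 3.83 ± 0.88 (SE, adjusted p = 0.0374), and in Ifit2, by 1.02 ± 0.25 (SE, adjusted p = 0.0424). It was the smaller in Sp100, with -1.17 ± 0.27 (SE, adjusted p = 0.0368). The difference was 1.69 ± 0.61 (SE, adjusted p = 0.11) in Ifit1, 0.97 ± 0.38 (SE, adjusted p = 0.127) in Iigp1 and -1.06 ± 0.39 (SE, adjusted p = 0.112) in Bst2, none of which passed. None of the 3 calls held in the fits that left out a P3, P12 or P24 library. Of these 3, edgeR called Oas3 and Sp100, and DESeq2 called Ifit2 and Sp100. Oas3 had few reads and passed the filter on low values only with its P24 libraries.

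**Figure D3:**
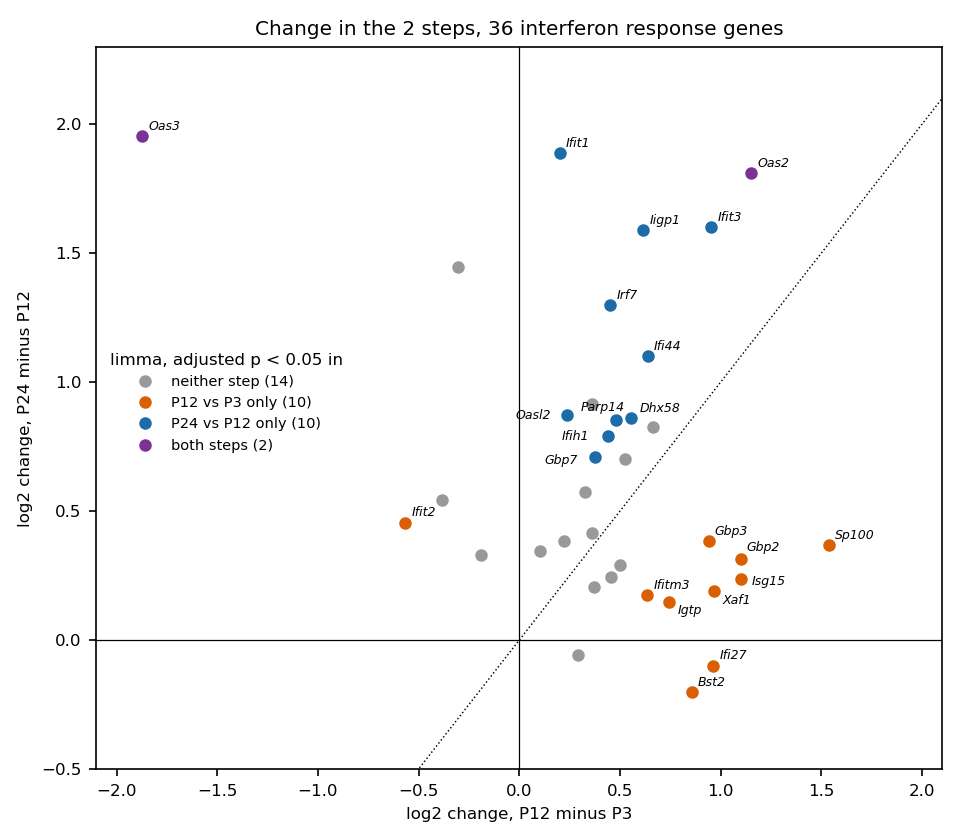
Log2 change at P12 against P3 (horizontal) and at P24 against P12 (vertical) of the 36 interferon response genes, coloured by the step in which limma's adjusted p was below 0.05; the dotted line marks equal change. Both axes use the P12 libraries, so errors in them pull points down and to the right or up and to the left. Sp100, Isg15 and Gbp2 lie right of the line, and Oas3, Ifit1, Iigp1 and Irf7 lie above it.

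At P6 little had moved. No member was called higher or lower than at P3 (limma, BH adjusted p below 0.05; 0.655% and 0.185% of all tested genes, 0.84% in all). At an unadjusted p below 0.05, Sp100, Gbp2 and Xaf1 were higher and Zbp1, Oasl2 and Oas2 lower, 3 of 36 each way, against 7.69% and 7.48% of all tested genes. DESeq2 called Sp100 higher and edgeR called 0. Sp100 had 508 and 465 normalized counts at P6 and 285 and 321 at P3, a log2 change of 0.68 ± 0.16 (SE, adjusted p = 0.0898). Oas2 had 20.3 and 24.4 at P6 and 40.1 and 30.6 at P3, a change of -0.63 ± 0.26 (SE, adjusted p = 0.293). In both genes the pairs did not overlap. Oasl2 had 141 and 137 at P6 and 241 and 177 at P3, a change of -0.57 ± 0.21 (SE, adjusted p = 0.247). The log2 changes of all 4 OAS genes and all 3 sensors were below 0, with Oas3 (7.09 and 4.88 at P6) and Zbp1 (4.05 and 15.9) low. Above 0 were 20 of the 36 members and 49.7% of all tested genes. Both P6 libraries lay above both P3 libraries in 9 members (19% of all tested genes) and below them in 10 (19.8%). The P6 pair was wide. The median log2 change of the members was 0.04 without P6 replicate 1 and -0.06 without P6 replicate 2. Over all tested genes it was -0.01 and -0.004.

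Levels were compared between genes only in FPKM, the authors' length-scaled unit. Ifitm3 was the most abundant member, with FPKM of 62.8 and 71.6 (P3), 70.3 and 93.6 (P6), 101 and 108 (P12), and 122 and 113 (P24). It alone made up 34.2% of the summed FPKM of the members at P24 and 35.7% at P3. Bst2 had FPKM of 21.04 and 20.05 (P3), 17.5 and 29.5 (P6), 36.1 and 38.4 (P12), and 33.9 and 30.9 (P24). Ifi27 had 11.9 and 12.05 (P3), 12.2 and 20.6 (P6), 21.8 and 25.1 (P12), and 21.8 and 21.8 (P24). At P24 the 3 genes did not overlap. At the other end stood Zbp1, at 0.460 to 0.520 FPKM at P24 and 0.199 to 0.235 at P3, and Oas3, at 0.0620 to 0.0820 at P24 and 0.0496 to 0.0905 at P3. Iigp1 was rank 6 among the members at P24, with 7.88 and 10.9 FPKM, and rank 22 at P3, with 2.36 and 1.70. Ifit3 was rank 9 at P24 and 23 at P3. Isg15 was rank 5 at P24 and 9 at P3, while Ifit2 was rank 14 at P24 and 6 at P3.

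**Figure D4:**
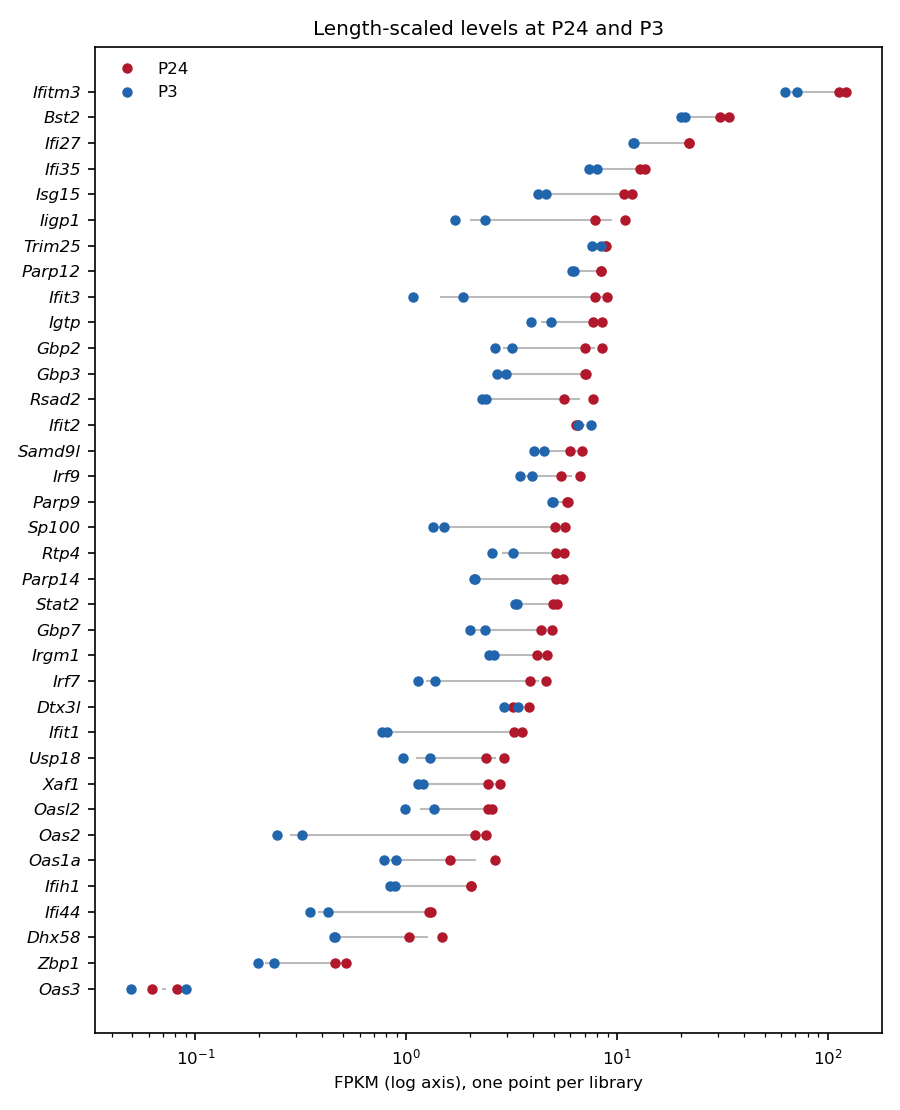
FPKM on a log axis at P24 (red) and P3 (blue) for the 36 interferon response genes, 1 point per library, ordered by the P24 mean, with a grey line between the stage means. Ifitm3, at 113 to 122 FPKM at P24, stands apart from the rest, and the widest gaps between stages are in Oas2, Ifit3 and Iigp1.

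The interferon genes themselves were at the limit of detection. Of 14 listed ligands, 11 were at 0 in all 8 libraries. Ifnb1, Ifng and Ifnz had at most 2 reads in any library, and the 14 together had 1 and 0 reads at P24 and 1 and 1 at P3. A count of 0 allows up to 3 reads in a library, so low or brief expression was not detectable at this depth. None of the ligands entered the test.

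Of 11 receptor, kinase and signal transducer genes, 4 were higher at P24 than at P3 (18.7% of all tested genes). Their median log2 change was 0.28, and that of the members 1.13. The risers were Il10rb, a shared chain of the lambda interferon receptor, 1.04 ± 0.14 (SE, adjusted p = 0.000635), the type II receptor chains Ifngr2, 0.99 ± 0.14 (SE, adjusted p = 0.00062), and Ifngr1, 0.71 ± 0.14 (SE, adjusted p = 0.00482), and the kinase Jak1, 0.48 ± 0.14 (SE, adjusted p = 0.0257). Ifngr2 had 7072 and 6723 normalized counts at P24 and 3624 and 3314 at P3. The type I receptor chains did not pass, at -0.40 for Ifnar1 and 0.28 for Ifnar2. Tyk2, Jak2, Stat3 and Ifnlr1 changed by 0.21, 0.30, 0.28 and -0.39, and none passed.

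Of 7 other interferon regulatory factors, 3 were higher at P24 than at P3 and 1 was lower, against 18.7% and 18.2% of all tested genes. Irf1, a factor induced by type II interferon, had 786 and 828 normalized counts at P24 and 382 and 396 at P3, a log2 change of 1.05 ± 0.17 (SE, adjusted p = 0.00146). It had already risen at P12, 1.02 ± 0.17 (SE, adjusted p = 0.00467). Irf5, a factor of myeloid cells, changed by 1.08 ± 0.22 (SE, adjusted p = 0.00458) and Irf4, a lymphoid and myeloid factor, by 1.86 ± 0.40 (SE, adjusted p = 0.00607).

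Among inhibitors and the sensing machinery, calls at P24 against P3 fell in both directions, near the shares over all tested genes (18.7% higher and 18.2% lower) for the inhibitors. Of 14 tested inhibitors of interferon signalling, 2 were higher at P24 than at P3 (Ptpn11 0.64 and Samhd1 0.59) and 3 lower (the cytokine signalling suppressor Socs2 -0.74, Pias3 -0.43 and Irf2bp1 -0.41). Trex1 was listed at 0 in all libraries. Of 19 sensor and adaptor genes, 6 were higher and 2 lower, with log2 changes of -2.19 to 2.03 over the list. Nlrc5, an activator of antigen presentation genes, changed by 2.03 ± 0.35 (SE, adjusted p = 0.00196), and Tlr7, an endosomal sensor of single-stranded RNA, by 1.72 ± 0.30 (SE, adjusted p = 0.00235). The kinase Ikbke, with the smaller of the 2 falls, changed by -0.81 ± 0.22 (SE, adjusted p = 0.0206).

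Many interferon-stimulated genes outside the 36 rose as well, from a list chosen, like the members, with earlier results of these data known. Of 80 listed and 72 tested, 47 were higher at P24 than at P3 (18.7% of all tested genes) and 3 lower (18.2%). Their median log2 change was 0.89, against -0.02 over all tested genes. The largest rises were in Tgtp2, a GTPase of the Iigp1 type, 3.73 ± 0.38 (SE, adjusted p = 9.88e-05), and Ifi205, a DNA-binding protein, 3.35 ± 0.52 (SE, adjusted p = 0.00123). Tgtp2 had 135 and 151 normalized counts at P24 and 12.7 and 7.64 at P3; it has a near copy, Tgtp1, that may share reads. The 3 that fell were Slfn9, -3.26 ± 0.20 (SE, adjusted p = 5.07e-06), Lgals9 (-0.60) and Parp11 (-0.57). At P12 against P3, 23 of the 72 were higher (11.4% of all tested genes) and 2 lower (13%). At P24 against P12, 18 were higher (8.2%) and 2 lower (8.14%).

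Cell type markers were followed in the same libraries. Of all tested genes, 18.7% were called higher and 18.2% lower at P24 against P3, and 11.4% and 13% at P12 against P3. The counts of called markers in these short lists were not tested against those shares. All 18 macrophage markers were above 0 in every library. Their summed normalized count was 3.13-fold higher at P24 than at P3, against 1.86-fold for the 36 members. Sums weigh genes with high counts most, and the median log2 changes were 1.45 for the markers and 1.13 for the members. The 12 endothelial markers changed by -0.26 to 0.45 at P24 against P3, with sums of 62030 to 66529 at P24 and 57559 to 65375 at P3, and 4 of 12 higher and 1 lower at P12 against P3. Of 6 tested monocyte markers 2 were higher, including Ccr2 (2.11), and 2 lower (Vcan -2.41, Itgal -0.89). Vcan, which other heart cells also express, made up most of that list's sum. Of T and NK cell markers 3 of 13 were high enough to test, with log2 changes of 0.28 to 0.45 and sums of 118 to 134 at P24 and 68.8 to 81.2 at P3. Of 7 B cell markers 2 were higher, including Fcer2a (1.88). The plasmacytoid dendritic cell list summed to 4796 to 5213 at P24 and 4611 to 6443 at P3. Of its 3 tested genes the member Bst2 was higher, and Irf8 (-0.19) and Tcf4 (-0.25) did not pass. Siglech, too low to test, had 13.5 and 9.84 normalized counts at P24 and 1.05 and 1.09 at P3. Conventional dendritic cell markers had 2 of 6 higher, Xcr1 (25.7 and 18.4 at P24, listed at 0 at P3) and Flt3 (10.8 and 11.1 at P24, listed at 0 at P3). Both entered the test only through their P24 libraries, so the filter on low values favoured a higher call there. Proliferation genes were lower in 12 of 12, at 0.0860 times their P3 sum. Granulocyte and mast cell markers were lower in 3 of 8 tested, at 0.348 times, and fibroblast markers higher in 2 and lower in 4 of 10, at 0.738 times. Mitochondrial genes took 18.8% and 19.0% of protein-coding reads at P24 and 9.64% and 10.7% at P3. The part of any of these in the rise of the members was not tested.

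**Figure D5:**
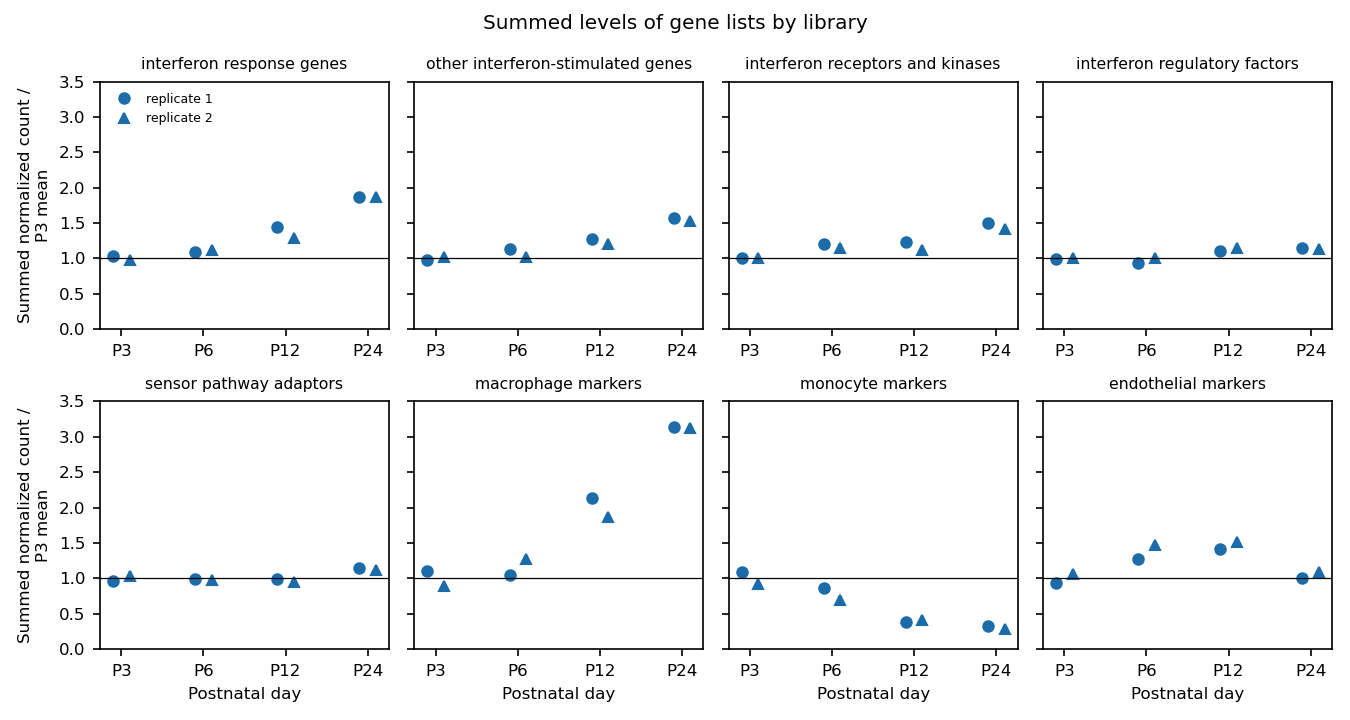
Summed normalized count of 8 gene lists in each library, divided by the P3 mean of the list (vertical axes, from 0), at P3, P6, P12 and P24, with circles for replicate 1 and triangles for replicate 2. The interferon response genes reach 1.86 times their P3 mean at P24 and macrophage markers 3.13 times. Endothelial markers are at 1.05 times and monocyte markers at 0.309 times. Such sums weigh genes with high counts most.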

How the data were processed

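RNA was measured by poly(A) RNA sequencing in 8 libraries of mouse whole ventricle, per the labels' protocols, and stage and replicate number came from the library titles. The authors deposited 1 table with 2 units: a normalized count signal and FPKM. Listed in the processing notes of the submitters are DESeq2 1.32.0, GRCm39, HTSeq 0.11.2, STAR 2.7.3a and Trim Galore 0.6.4. Annotation release and strand setting are not given in the sources used here, which leaves reads of overlapping genes and near copies uncertain. Within a gene the deposited FPKM and the normalized count had the same ratio in every library, so FPKM was used only for levels between genes. The deposited normalized counts were whole multiples of 1 read (100% of values, tolerance 0.001), which gave the recovered reads. Libraries held 23375967 to 28745112 reads, of which 3 reads, the most that a count of 0 allows, made up at most 1.28e-05% (counting error only).

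limma 3.58.1 in R 4.3.3 was fitted to log2(normalized count + 1), a scale that understates changes of low genes, with trended variance, stage as a factor and all 8 libraries together (4 residual and 4.83 prior degrees of freedom). Genes needed a value of 10 in 2 libraries. On recovered reads edgeR 4.0.16, the added count test, called 2613 genes higher and 2559 lower at P24 against P3, and limma 2623 and 2564. DESeq2 1.42.0 was also run. Other alternatives were a pseudocount of 10, no filter, a filter of 50, scaling by library total, quantile normalization, a replicate block, a term for Y-linked reads, removal of a length trend, and leaving out each library or both P6 libraries.

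The members, gene lists, contrasts and tests were chosen with earlier results of these data known. Values in all libraries are given for members called lower in any comparison, Stat2, Irf9, Irf7, Usp18 and Isg15, the 2 largest changes per role group among called members, the 3 highest mean FPKM values, and members with a stage mean of at least 50 whose replicates differed over 2-fold; Zbp1 and other values were added after they were seen. The 2 largest rises and falls of each list were to be named, with all receptors, kinases and regulatory factors, but some of these genes are counted and not reported by name here. Promoters were matched by symbol to RefSeq (GRCm38.p6). Exon overlaps came from a GENCODE annotation of another assembly than the deposited table, so they are used by name only.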

Additional observations from a re-analysis of the deposited data

How the results depend on the processing

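At P24 against P3 the count of members called higher was 29 to 31 under 10 of the 11 alternatives that left out no single library, and 21 under scaling by library total. Leaving out 1 library gave 17 to 31 higher and 0 lower. Of the 30 calls, 16 held in every fit run. Scaling by library total gave 1 member lower at P24 against P3 and reversed 4 uncalled changes: Dtx3l -0.19, Oas3 -0.24, Parp9 -0.12 and Trim25 -0.20. Oas3 also reversed with a term for Y-linked reads (-0.071), and leaving out 1 library gave it -0.32 (without P3 replicate 2) to 0.48, with -0.11 without P24 replicate 1. At P12 against P3, 1 of 12 calls held in every fit. The count higher was 22 without both P6 libraries and 1 to 22 when 1 library was left out. The count lower was 1 with the filter of 50 (Oas3 not tested), 1 with DESeq2 and 0 to 2 when 1 library was left out. At P24 against P12, 2 of 12 calls held in every fit. The count higher was 24 without both P6 libraries and 2 to 24 when 1 library was left out, with 0 lower. At P6 against P3, DESeq2 called 1 member higher, as did removal of the length trend, and leaving out 1 library gave 0 to 7 higher and 0 to 2 lower. Leaving out 1 library of a stage assumes that its lone partner varies as the other pairs do. The causes were not tested.

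The labels do not say whether replicate numbers pair libraries. Deviations of same-numbered libraries from their stage means correlated at -0.14 to 0.32 between stages, which cannot settle it. With the replicate number as a block, 30, 12, 13 and 0 members were higher at P24 against P3, P12 against P3, P24 against P12 and P6 against P3, and 0, 2, 0 and 0 lower.

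Over all genes, limma called 2623 higher and 2564 lower at P24 against P3, and scaling by library total 1505 and 5006. At P24 against P12 the counts were 1153 and 1144, and 497 and 2109 under that scaling. Leaving out 1 library gave 1439 to 3916 higher and 1535 to 3904 lower at P24 against P3, 310 to 3270 and 349 to 3749 at P12 against P3 (1608 and 1824 with all), and 138 to 3281 and 380 to 2752 at P24 against P12. Without both P6 libraries 3893 were lower at P24 against P3, 3739 at P12 against P3 and 2734 at P24 against P12. At P6 against P3, 92 were higher and 26 lower, against 310 and 205 with DESeq2, 201 and 101 with the length trend removed, 55 and 15 with no filter, 48 and 16 under library total scaling, and 5 to 2286 and 1 to 2158 without 1 library. For the second step minus the first, 503 were higher and 559 lower, against 1088 and 1108 with DESeq2, 1233 and 920 with the replicate block, 1454 and 1203 with the Y-linked term, 264 and 617 under library total scaling, 308 and 425 with no filter, 3133 and 2693 without both P6 libraries, and 12 to 3138 and 65 to 2699 without 1 library. With 2 libraries a stage, small changes and low genes such as Oas3 and Zbp1 were at the limit of what these data could show.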
